A study of Homo sapiens with 2 samples.

Results

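Cholesterol and fatty acids are made from acetyl-CoA by enzymes whose genes are switched together, and 38 genes of these pathways are described here in L3.6 cells. The members were taken by name, as the rows of the 2 per-gene tables whose gene symbol was on a list of 38 symbols, and all 38 were found among 60612 genes listed. All 38 also had at least 1 FPKM (fragments scaled to transcript length and library size) in at least 1 library and so were among the 12520 genes compared. ABCA1 was the member that reached this level in the shCtrl library alone. By role, 7 members belong to the mevalonate arm that runs from acetyl-CoA to farnesyl diphosphate and 11 to the sterol arm that runs from squalene to cholesterol. A further 9 belong to fatty acid synthesis, 5 to the control of the SREBP transcription factors, and 6 to the uptake, transport and export of sterols.

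L3.6 is an established human line of pancreatic ductal adenocarcinoma (PDAC), and the study asked what loss of ESE1, an epithelial ETS transcription factor encoded by ELF3, does to its gene expression. The shCtrl library came from L3.6 cells carrying a pLKO lentiviral scramble shRNA, and the shESE1 library from L3.6 cells carrying a pLKO lentiviral shRNA against ESE1. By the study's methods both were stable lines kept as pools of puromycin-resistant clones, so both groups share the vector and the selection. The labels give the control as receiving no treatment, and which of the study's shRNAs against ESE1 was used for the library is not given in the sources used here.

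There was 1 library per condition, so no spread between cultures could be measured, no p-value is given, and each difference below is one between 2 libraries. Intervals are 95% Clopper-Pearson intervals, made from the counts and given for the FPKM ratio, and cover counting error only. ELF3 was at 20.4 FPKM in shCtrl and 10.7 FPKM in shESE1, from 9869 and 5624 counts, which is 1.91-fold lower with an interval of 1.85 to 1.98. Total counts were 56853971 and 60786475, and genes of the mitochondrial genome took 12.4% of them in shCtrl and 3.79% in shESE1. Ductal markers were present, with KRT7, KRT8, KRT18, KRT19 and EPCAM each between 109.7 and 606 FPKM in both libraries and MUC1 at 5.41 and 2.48 FPKM, while 9 of 9 acinar and endocrine markers had 0 counts in both. Of 6 fibroblast markers 2 had 0 counts in both libraries and the summed level was 5.13 FPKM in shCtrl and 2.40 FPKM in shESE1, nearly all of it COL1A1. Of 6 immune markers 4, among them PTPRC, had 0 counts in both and the sum was 3.84 and 7.98 FPKM, nearly all of it CD68. The 5 endothelial and blood markers summed to 2.05 FPKM in shCtrl and 1.67 FPKM in shESE1. Among them CDH5 was at 1.18 and 1.16 FPKM, PECAM1 at 0.708 and 0.159 FPKM, and HBB at 0 counts in both.

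Cells sense cholesterol in the membrane of the endoplasmic reticulum. When it is scarce, the escort protein SCAP carries the SREBP precursors to the Golgi, where proteases release the part that enters the nucleus and switches on genes of sterol and fatty acid synthesis. When it is plentiful, INSIG proteins hold SCAP back, and oxysterols switch on the nuclear receptor LXR, which drives genes of cholesterol export. SREBP2, encoded by SREBF2, is known mainly for the sterol genes, and SREBP1, encoded by SREBF1, mainly for the fatty acid genes.

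The change of a gene was measured as log2((shESE1 FPKM + 1)/(shCtrl FPKM + 1)), a scale that shrinks changes where the level is low. On this scale 6 of the 38 members were at least 2-fold higher in shESE1, against 3.14% of all 12520 compared genes, and 1 was at least 2-fold lower, against 3.26% of all. At 1.5-fold the counts were 12 members higher, against 12.2% of all compared genes, and 2 lower, against 11.5%. The 6 and the 12 higher members all belonged to the mevalonate and sterol arms, and the 2 lower members were the export pumps ABCA1 and ABCG1. The median log2 change was 0.40 over the 38 members and 0.02 over all compared genes, whose quartiles were −0.31 and 0.34. In RNA from whole cultures, fewer cells of a kind and less RNA per cell cannot be told apart.

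**Figure D1:**
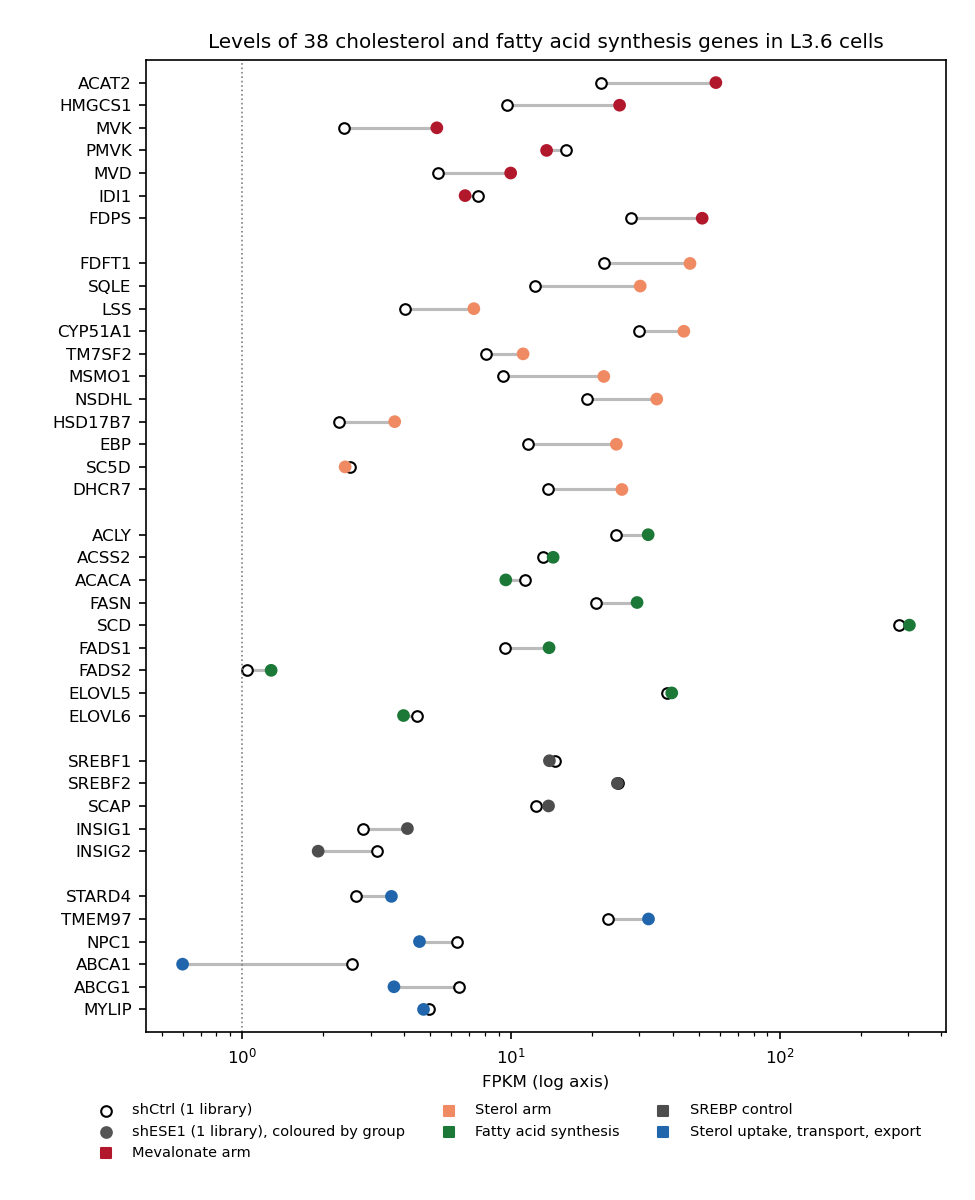
Level of each of the 38 members in FPKM on a log axis, with the shCtrl library as an open circle and the shESE1 library as a filled circle coloured by group, in pathway order, and a dotted line at 1 FPKM. In the mevalonate and sterol arms 15 of 18 filled circles lie to the right of the open ones, SCD stands apart at 277 and 304 FPKM, and ABCA1 moves from 2.55 to 0.599 FPKM.

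The synthesis of cholesterol showed higher levels in shESE1 along most of its length. Of its 18 members, 15 were higher in shESE1, 12 of them by at least 1.5-fold and 6 by at least 2-fold, and none was lower by 1.5-fold. Of all 12520 compared genes, 6451 were higher in shESE1. The median log2 change was 0.85 in the mevalonate arm and 0.83 in the sterol arm, and 15 of the 18 were above the upper quartile of all compared genes. Added up, the 18 genes stood at 226 FPKM in shCtrl and 423 FPKM in shESE1, 1.87-fold higher. As shares of the libraries they took 977 CPM (counts scaled to library size) in shCtrl and 1906 CPM in shESE1.

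The first steps were among those with the widest differences. ACAT2 (ENSG00000120437, chromosome 6, 159762045 to 159779112 on the plus strand of GRCh38), the cytosolic thiolase that joins 2 acetyl-CoA molecules, was at 21.6 FPKM in shCtrl and 57.9 FPKM in shESE1, from 3839 and 11205 counts. It was 2.68-fold higher (interval 2.58 to 2.78), with a log2 change of 1.38. HMGCS1 (ENSG00000112972, chromosome 5, 43287470 to 43313512, minus strand), the cytosolic HMG-CoA synthase that makes the next intermediate, was at 9.67 FPKM and 25.4 FPKM from 4315 and 12329 counts. It was 2.62-fold higher (2.53 to 2.72), with a log2 change of 1.30. Of all compared genes, 99.0% had a smaller log2 change than ACAT2 and 98.8% a smaller one than HMGCS1. ACAT2 overlaps TCP1 on the other strand, whose counts were 13656 and 20583. The libraries keep strand, but the strand setting of the counting is not given in the sources used here, so reads of the shared stretch may have been assigned to either gene.

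The kinases that act in turn on mevalonate and phosphomevalonate went separate ways in the deposited FPKM. MVK, mevalonate kinase, was at 2.38 FPKM in shCtrl and 5.29 FPKM in shESE1 from 1044 and 2523 counts. This is a 2.22-fold ratio (2.07 to 2.39), but a log2 change of 0.90 with the pseudocount, under the 2-fold threshold. MVK overlaps MMAB on the other strand, which had 1633 and 1654 counts. PMVK, phosphomevalonate kinase, was at 16.1 FPKM and 13.6 FPKM from 1085 and 998 counts, 1.19-fold lower (1.09 to 1.29), and so was on the other side of 0 from MVK. The sign of PMVK, but not that of MVK, changed with the scaling, as given below.

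The rest of the mevalonate arm was also mixed. MVD, the decarboxylase that yields isopentenyl diphosphate, was at 5.34 FPKM in shCtrl and 9.97 FPKM in shESE1 from 1703 and 3455 counts, 1.87-fold higher (1.76 to 1.98). IDI1, the isomerase that turns this product into dimethylallyl diphosphate, was at 7.53 FPKM and 6.75 FPKM from 2205 and 2153 counts, 1.12-fold lower (1.05 to 1.19). FDPS, farnesyl diphosphate synthase, was at 28.0 FPKM and 51.5 FPKM from 7025 and 14048 counts, 1.84-fold higher (1.78 to 1.89). PMVK and IDI1 were thus the lower members of this arm, both by less than 1.5-fold.

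Farnesyl diphosphate is committed to sterols by FDFT1 (ENSG00000079459), squalene synthase. It was at 22.2 FPKM in shCtrl and 46.4 FPKM in shESE1, from 7779 and 17683 counts, 2.09-fold higher (2.03 to 2.14). SQLE (ENSG00000104549), the squalene epoxidase that is a rate-limiting enzyme of the pathway, was at 12.3 FPKM and 30.3 FPKM from 3568 and 9559 counts. It was 2.46-fold higher (2.37 to 2.56), with a log2 change of 1.23. LSS, which closes the rings to give lanosterol, was at 4.03 FPKM and 7.27 FPKM from 1971 and 3865 counts, 1.80-fold higher (1.71 to 1.90).

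The enzymes that trim lanosterol differed in how much higher they were. CYP51A1, the lanosterol demethylase, was at 30.0 FPKM in shCtrl and 43.98 FPKM in shESE1 from 7131 and 11389 counts, 1.47-fold higher (1.42 to 1.51). It shares 80.8% of the 100-base words of its transcripts with AC000120, CYP51A1P1 and CYP51A1P2, so its own counts are uncertain, and with these genes added in, 7312 and 11585 counts, the log2 ratio was 0.54. TM7SF2, a sterol reductase, was at 8.08 FPKM and 11.1 FPKM from 1873 and 2799 counts, 1.37-fold higher (1.29 to 1.46). MSMO1 (ENSG00000052802, chromosome 4, 165327667 to 165343164, plus strand), the methylsterol monooxygenase that opens the removal of the methyl groups, stood out among them. It was at 9.31 FPKM and 22.1 FPKM from 1789 and 4636 counts, 2.38-fold higher (2.25 to 2.51), with a log2 change of 1.17.

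NSDHL, which acts after MSMO1 in this removal, was at 19.2 FPKM in shCtrl and 34.9 FPKM in shESE1 from 2576 and 5107 counts, 1.82-fold higher (1.73 to 1.91). HSD17B7, the ketosteroid reductase that completes it, was at 2.30 FPKM and 3.69 FPKM from 742 and 1297 counts, 1.61-fold higher (1.47 to 1.76), though its log2 change with the pseudocount, 0.51, was under 1.5-fold. MSMO1, NSDHL and HSD17B7 work on the same methyl groups, and all 3 were higher. EBP (ENSG00000147155, chromosome X, 48521799 to 48528710, plus strand), the sterol isomerase, was at 11.6 FPKM and 24.7 FPKM from 1380 and 3201 counts, 2.13-fold higher (2.00 to 2.27).

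The last steps diverged. SC5D, the desaturase that follows EBP, was at 2.51 FPKM in shCtrl and 2.41 FPKM in shESE1 from 1700 and 1781 counts, and the interval of its log2 ratio, −0.15 to 0.04, spanned 0. DHCR7, the reductase that makes cholesterol from its last precursor, was at 13.7 FPKM and 25.9 FPKM from 3808 and 7824 counts, 1.89-fold higher (1.81 to 1.96). SC5D was the one gene of the sterol arm that was not higher in shESE1, though with TMM scaling and as TPM it too was above 0.

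**Figure D2:**
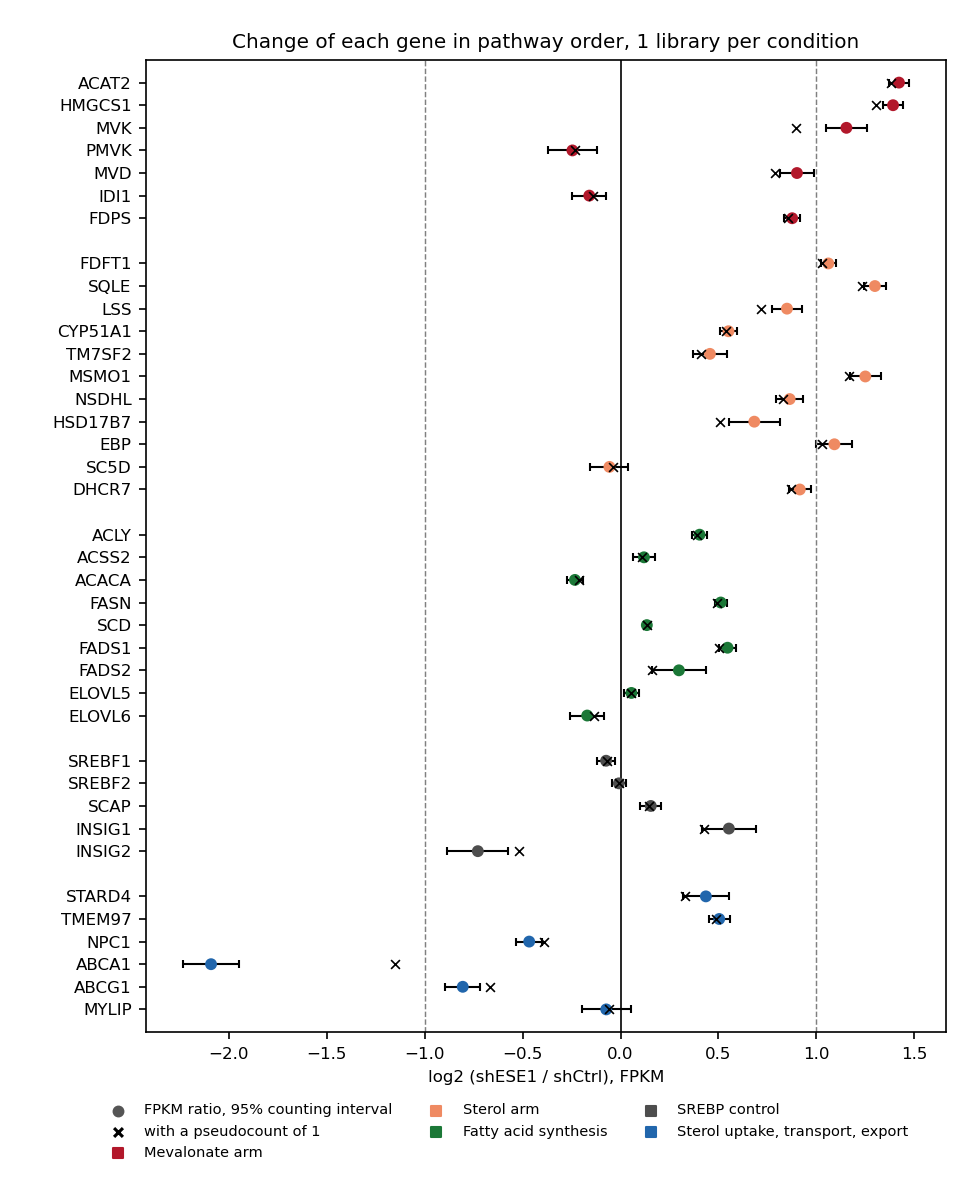
Log2 ratio of shESE1 to shCtrl for the 38 members in pathway order, with filled points and bars for the FPKM ratio and its 95% counting interval, crosses for the log2 change with a pseudocount of 1, and dashed lines at 2-fold. ACAT2, HMGCS1, SQLE, MSMO1, EBP and FDFT1 have crosses beyond the upper line, and ABCA1 alone has one beyond the lower line.

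The place of all genes on the log2 scale depended on the scaling, which was checked because the libraries differ in their share of mitochondrial reads. Rescaled to TPM (each library summing to the same total), the median of all compared genes was 0.27, 9.16% of them were at least 2-fold higher and 3.99% lower, and 12 of the 18 cholesterol synthesis members were at least 2-fold higher. When mitochondrial genes were dropped from the library totals, the median of all was −0.09, 2.34% were higher and 4.47% lower, and 4 of the 18 members were at least 2-fold higher. Relative to the median of all genes, the median of the cholesterol synthesis members hardly moved. The median of the 18 stood 0.80 to 0.86 above that of all genes in the deposited FPKM, in TPM, after median ratio scaling, in CPM with and without TMM scaling, and without mitochondrial genes. In each of these, 15 of the 18 were above the median of all. PMVK, IDI1 and SC5D, listed above as lower, were higher as TPM, with log2 changes of 0.02, 0.10 and 0.18.

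Transcript length and base content were compared too, both taken from the longest annotated transcript of each gene, which need not be the one expressed. The median transcript length was 2663 bases for the 18 members and 3178 bases for all compared genes, and the median GC content was 50.3% and 48.4%. With the trend in length and GC content across all genes taken out, which was decided on after the data were seen, the median of the 18 was 0.65. Of the 18, 4 were then at least 2-fold higher, against 2.32% of all compared genes.

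**Figure D3:**
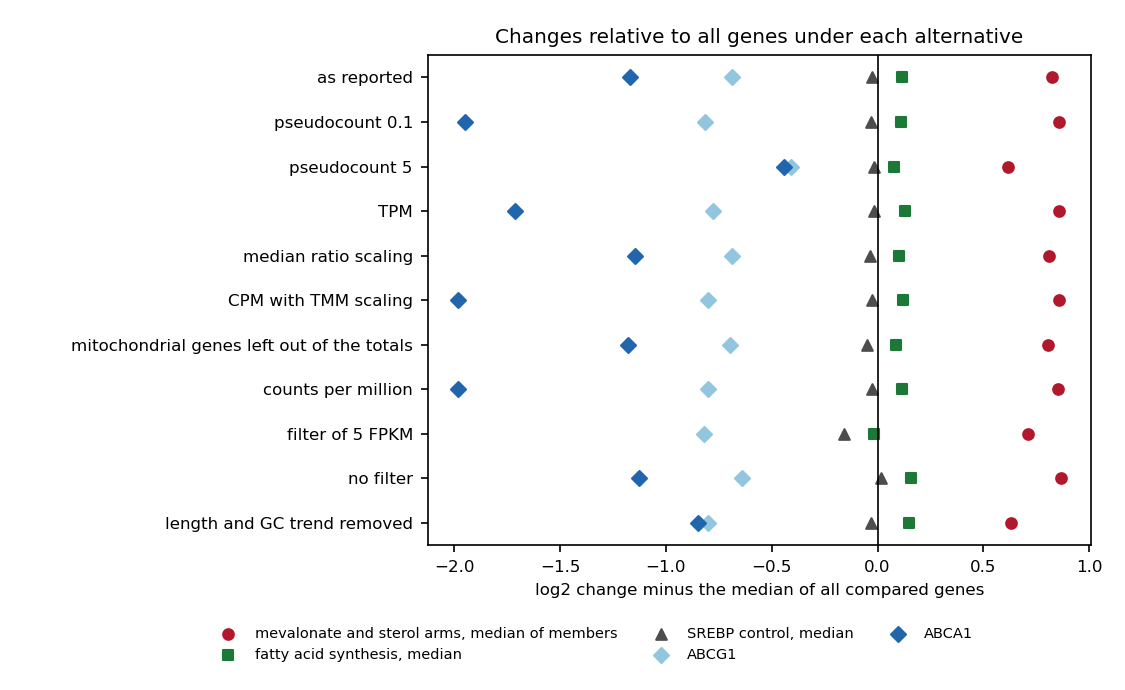
Median log2 change of 3 member groups and the log2 change of ABCG1 and ABCA1, each minus the median of all compared genes, as reported and under each alternative of scaling, pseudocount, filter or trend removal. The mevalonate and sterol arms lie between 0.62 and 0.87 in every one, the fatty acid genes and SREBP control genes lie near 0, and ABCA1 is not drawn with the filter of 5 FPKM, which it did not pass.

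The promoters of these genes are shown because SREBPs are known to act with the CCAAT-binding factor NF-Y on sterol genes. RefSeq promoter sequence on GRCh38.p14 was matched by symbol for 33 of the 38 members, not for ACAT2, SQLE, FASN, ABCG1 and FDFT1, and the 250 bases before each start were searched on both strands. The CCAAT box, CCAAT on one strand or ATTGG on the other, was found in 12 of the 15 matched promoters of the mevalonate and sterol arms. It was found in 33.04% of all 27305 promoters and in 36.0% of the 8776 that belong to compared genes. The 3 without a match were CYP51A1, IDI1 and PMVK. The sequences of HMGCS1, MSMO1 and EBP, all at least 2-fold higher, follow from 5′ to 3′ along each gene's strand with the boxes in capitals.

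HMGCS1 (chr5:43313413-43313662, minus strand): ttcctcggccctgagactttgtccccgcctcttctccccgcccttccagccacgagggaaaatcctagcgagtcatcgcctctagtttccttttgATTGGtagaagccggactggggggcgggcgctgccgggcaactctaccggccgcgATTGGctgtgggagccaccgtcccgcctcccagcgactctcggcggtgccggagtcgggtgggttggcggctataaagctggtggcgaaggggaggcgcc
MSMO1 (chr4:165327419-165327668, plus strand): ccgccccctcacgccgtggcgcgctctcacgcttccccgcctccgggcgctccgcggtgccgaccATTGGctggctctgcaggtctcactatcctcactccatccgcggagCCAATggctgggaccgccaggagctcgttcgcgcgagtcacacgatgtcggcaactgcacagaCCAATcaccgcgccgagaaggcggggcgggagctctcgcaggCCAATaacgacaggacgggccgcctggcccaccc
EBP (chrX:48521558-48521807, plus strand): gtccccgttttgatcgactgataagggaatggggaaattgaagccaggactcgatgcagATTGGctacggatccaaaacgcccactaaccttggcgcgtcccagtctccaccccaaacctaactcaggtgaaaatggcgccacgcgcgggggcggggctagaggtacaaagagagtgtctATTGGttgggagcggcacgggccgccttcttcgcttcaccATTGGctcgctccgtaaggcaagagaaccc

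HMGCS1 held 2 boxes, which began 155 and 100 bases before the start. MSMO1 held 4 boxes, at 185, 139, 76 and 34 bases, and EBP held 3, at 191, 70 and 30 bases. MVK and NSDHL held 5 each. The box was also present in SC5D, 56 bases before the start, whose level was nearly the same in both libraries. Of the other members with a matched promoter, 4 of 8 fatty acid genes held it, ACLY, ACSS2, ELOVL5 and SCD. It was in 2 of 5 SREBP control genes, INSIG1 and SREBF2, and in 3 of 5 genes of uptake, transport and export, MYLIP, STARD4 and TMEM97.

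One letter form of the sterol regulatory element, TCACNCCAC on either strand, was found in SREBF2 alone of the 33 members. It was in 0.875% of all promoters and 0.855% of those of compared genes. The core ETS site CCGGAAG, of the family to which ESE1 belongs, was in CYP51A1, FDPS, IDI1 and INSIG2, and in 8.82% of all promoters and 17.7% of those of compared genes. IDI1 held 4 of them, 105, 93, 56 and 16 bases before the start. CYP51A1 and FDPS were higher in shESE1, while IDI1 and INSIG2 were lower. A match of letters describes the sequence, and binding was not measured in these data.

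**Figure D4:**
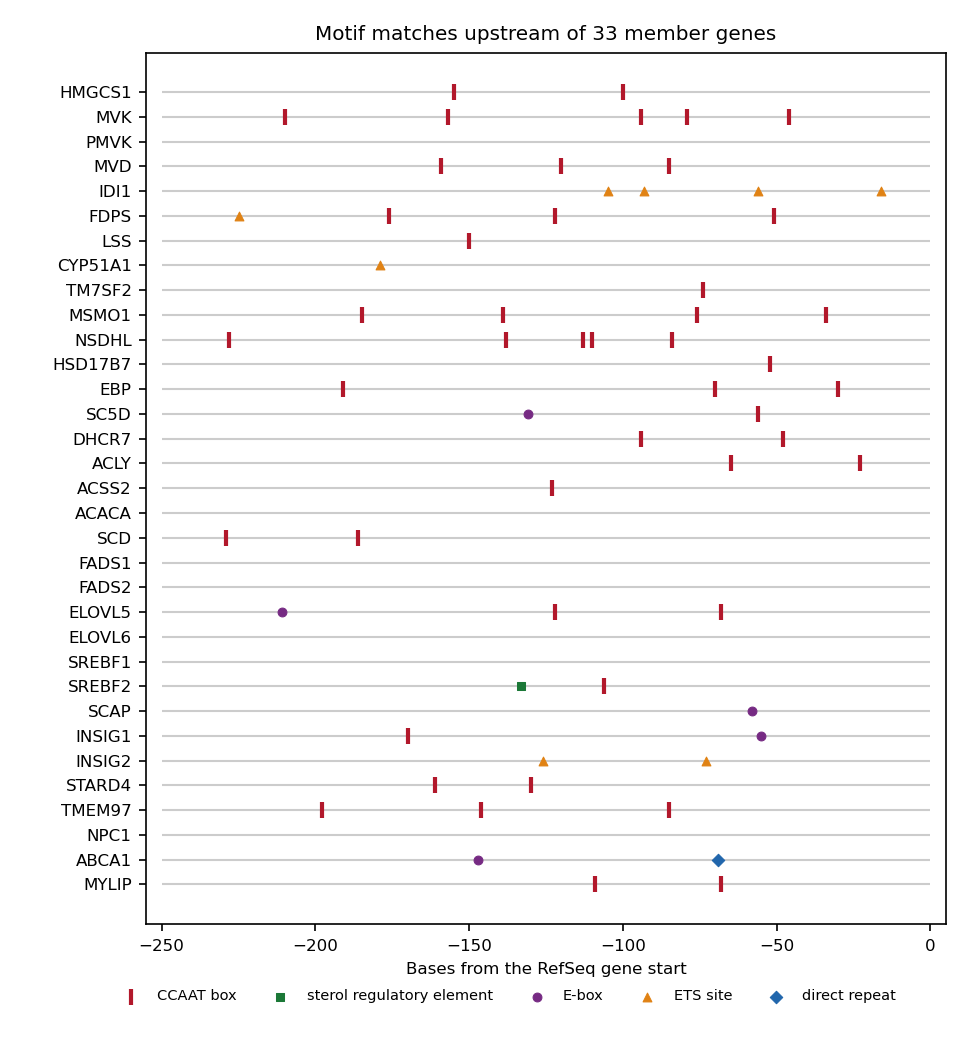
Position of motif matches in the 250 bases before the RefSeq start of the 33 members with a matched promoter, in pathway order, with the distance from the start in bases on the horizontal axis and 1 symbol per match. CCAAT boxes are seen in 12 of 15 genes of the mevalonate and sterol arms, from HMGCS1 to DHCR7, and ETS sites crowd the IDI1 line.

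Of the SREBP control genes, SREBF2, SREBF1 and SCAP were at nearly the same level in both libraries. SREBF2 (ENSG00000198911) was at 25.02 FPKM in shCtrl and 24.9 FPKM in shESE1 from 12728 and 13792 counts, and the interval of its log2 ratio was −0.04 to 0.03. SREBF1 was at 14.6 FPKM and 13.9 FPKM from 8124 and 8411 counts, 1.05-fold lower (1.02 to 1.09), and overlaps RAI1 on the other strand, which had 3359 and 2575 counts. As TPM the log2 changes of SREBF1 and SREBF2 were 0.19 and 0.25, on the other side of 0 and close to the median of all genes on that scale. SCAP was at 12.4 FPKM and 13.8 FPKM from 5252 and 6367 counts, 1.11-fold higher (1.07 to 1.15). The mRNA level does not show how much SREBP protein is processed, which was not measured here. The SREBF2 promoter is shown for the sterol regulatory element it holds, with that element and a CCAAT box in capitals, beginning 133 and 106 bases before the start.

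SREBF2 (chr22:41832855-41833104, plus strand): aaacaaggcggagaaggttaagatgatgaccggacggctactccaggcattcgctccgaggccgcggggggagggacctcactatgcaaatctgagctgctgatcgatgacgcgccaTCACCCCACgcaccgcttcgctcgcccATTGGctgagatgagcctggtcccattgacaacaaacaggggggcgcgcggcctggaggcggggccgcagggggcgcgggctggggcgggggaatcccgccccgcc

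The INSIG genes differed from each other. INSIG1 was at 2.80 FPKM in shCtrl and 4.11 FPKM in shESE1 from 691 and 1104 counts, 1.47-fold higher (1.33 to 1.62). INSIG2 was at 3.17 FPKM and 1.91 FPKM from 845 and 556 counts, 1.66-fold lower (1.49 to 1.85). With the pseudocount both were under 1.5-fold, at 0.43 and −0.52. The ratio of INSIG1 to INSIG2 in FPKM was 0.884 in shCtrl and 2.15 in shESE1. The median log2 change of the 5 SREBP control genes was −0.01, and none passed 1.5-fold.

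Fatty acid synthesis lay closer to the median of all genes than cholesterol synthesis did. None of its 9 members passed 1.5-fold in either direction, and the median log2 change was 0.13. As all 18 cholesterol synthesis genes and these 9 were read from the same 2 libraries, whether the groups differ beyond the spread between cultures was not tested. ACLY, which cleaves citrate to cytosolic acetyl-CoA, was at 24.5 FPKM in shCtrl and 32.4 FPKM in shESE1 from 8586 and 12378 counts, 1.32-fold higher (1.29 to 1.36). ACSS2, which makes acetyl-CoA from acetate, was at 13.2 FPKM and 14.3 FPKM from 4670 and 5529 counts, 1.09-fold higher (1.04 to 1.13). ACSS2 overlaps GGT7 on the other strand, with 1261 and 1074 counts.

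The enzymes that build the chain stood on both sides of 0. ACACA, the acetyl-CoA carboxylase of the committed step, was at 11.2 FPKM in shCtrl and 9.56 FPKM in shESE1 from 9852 and 9139 counts, 1.18-fold lower (1.14 to 1.21). FASN, fatty acid synthase, was at 20.7 FPKM and 29.5 FPKM from 12963 and 20145 counts, 1.43-fold higher (1.39 to 1.46). ACACA and FASN catalyse consecutive steps, and their log2 changes were −0.21 and 0.49, that of ACACA turning to 0.03 as TPM and 0.07 without the length and GC trend.

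SCD, the desaturase that makes monounsaturated fatty acids, was the most abundant member in both libraries. It was at 277 FPKM in shCtrl and 304 FPKM in shESE1 from 97772 and 116963 counts, 1.10-fold higher (1.09 to 1.11). FADS1, which desaturates polyunsaturated fatty acids, was at 9.49 FPKM and 13.9 FPKM from 6535 and 10400 counts, 1.46-fold higher (1.42 to 1.51), close to FASN. FADS2, the neighbouring desaturase, was at 1.04 FPKM and 1.28 FPKM from 747 and 995 counts, 1.23-fold higher (1.12 to 1.35). FADS2 overlaps FADS1 on the other strand and FEN1 on its own strand, and FEN1 had 6888 and 19961 counts, so the FADS2 level is uncertain.

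The elongases showed little difference. ELOVL5, which lengthens polyunsaturated chains, was at 38.1 FPKM in shCtrl and 39.6 FPKM in shESE1 from 9793 and 11092 counts, 1.04-fold higher (1.01 to 1.07). ELOVL6, which lengthens palmitate to stearate, was at 4.48 FPKM and 3.98 FPKM from 2194 and 2125 counts, 1.13-fold lower (1.06 to 1.20). Added up, the 9 genes stood at 400 FPKM and 448 FPKM, most of it SCD. Small changes turned with the scaling. ELOVL6 was at 0.09 as TPM, and ACSS2, ELOVL5 and SCD were at −0.01, −0.08 and −0.000795 without mitochondrial genes in the totals.

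The 2 members at least 1.5-fold lower with the pseudocount were both genes of sterol uptake, transport and export. Of all compared genes, 11.5% were lower by that much. ABCA1 (ENSG00000165029, chromosome 9, 104781006 to 104928155, minus strand), the pump that passes cholesterol to apolipoproteins and a known LXR target, was at 2.55 FPKM in shCtrl and 0.599 FPKM in shESE1 from 1936 and 496 counts. It was 4.26-fold lower (3.86 to 4.71), and its log2 change with the pseudocount was −1.15. Of all compared genes, 2.16% had a lower log2 change. The call at 2-fold was lost with a pseudocount of 5 (−0.43) and after removal of the length and GC trend (−0.83). ABCA1 did not pass a filter of 5 FPKM.

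ABCG1, an LXR target that moves cholesterol to lipoprotein particles, was at 6.41 FPKM in shCtrl and 3.67 FPKM in shESE1 from 2641 and 1648 counts. It was 1.75-fold lower (1.64 to 1.86), with a log2 change of −0.67. Both pumps were thus lower in shESE1, ABCA1 more than ABCG1, and the FPKM ratio of ABCG1 to ABCA1 was 2.51 in shCtrl and 6.12 in shESE1. MYLIP, the ubiquitin ligase that degrades lipoprotein receptors and is also an LXR target, was at 4.97 FPKM and 4.72 FPKM from 1028 and 1065 counts. The interval of its log2 ratio, −0.20 to 0.05, spanned 0, and it lay nearer to 0 than either pump. LXR activity was not measured here, and the other members are not labelled by whether LXR acts on them.

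The ABCA1 promoter is shown because LXR is known to bind there at a direct repeat. The search used copies of GGTNA, a shortened half-site, 5 bases apart, a wider gap than between full half-sites. This repeat was found in ABCA1 alone of the 33 members, on the strand opposite the gene. It was in 0.553% of all promoters and 0.376% of those of compared genes. In the sequence the repeat, which begins 69 bases before the start, and an E-box (CACGTG) at 147 bases are in capitals. The E-box, at which SREBPs and other helix-loop-helix factors can bind, was also in ELOVL5, INSIG1, SC5D and SCAP. It was in 6.49% of all promoters and 9.06% of those of compared genes.

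ABCA1 (chr9:104928156-104928405, minus strand): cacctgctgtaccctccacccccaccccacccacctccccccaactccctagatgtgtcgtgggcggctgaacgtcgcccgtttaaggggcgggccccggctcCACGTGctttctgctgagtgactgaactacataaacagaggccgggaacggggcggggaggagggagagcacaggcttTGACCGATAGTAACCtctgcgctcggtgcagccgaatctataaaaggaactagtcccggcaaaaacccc

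The other members of this group were within 1.5-fold. NPC1, which releases cholesterol from lysosomes, was at 6.30 FPKM in shCtrl and 4.56 FPKM in shESE1 from 4124 and 3256 counts, 1.38-fold lower (1.32 to 1.45). It overlaps RMC1 on the other strand, with 1444 and 2034 counts. STARD4, a sterol carrier, was at 2.65 FPKM and 3.59 FPKM from 1018 and 1501 counts, 1.35-fold higher (1.25 to 1.47). TMEM97, which binds NPC1, was at 22.9 FPKM and 32.5 FPKM from 4517 and 6981 counts, 1.42-fold higher (1.37 to 1.47). TMEM97 overlaps IFT20 on the other strand, which had 1180 and 852 counts. STARD4 and TMEM97 were thus higher in shESE1 and NPC1 lower, and what drives these differences was not tested. The median log2 change of the 6 genes was −0.23.

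Other genes that act around these pathways were read from lists made by role. Over all compared genes, 3.14% were at least 2-fold higher and 3.26% at least 2-fold lower. Of the 10 compared genes of SREBP processing and INSIG turnover none passed 2-fold, and the median was 0.14. UFD1, which helps to extract degraded proteins from the endoplasmic reticulum, went from 8.73 to 14.5 FPKM (0.67). None of 13 genes that use farnesyl diphosphate for other products passed 2-fold, and the median was −0.07. There DOLK, dolichol kinase, went from 9.16 to 15.2 FPKM (0.67), and NUS1, a subunit of the enzyme that makes dolichol precursors, from 12.2 to 7.62 FPKM (−0.62). The branches that leave the pathway at farnesyl diphosphate thus had a median near that of all genes.

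Of 8 compared genes of LXR and cholesterol efflux none passed 2-fold, and the median was −0.18. NR1H2, which encodes LXR beta, went from 6.81 to 11.1 FPKM (0.63), and its partner RXRA from 13.8 to 9.63 FPKM (−0.48). Of 11 genes of sterol storage and movement 1 passed 2-fold, LAMTOR1, part of the lysosomal complex that anchors mTORC1, which went from 15.6 to 56.3 FPKM (1.79). The median of that list was −0.02, so LAMTOR1 stood apart from the rest of it.

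The supply of citrate, acetyl-CoA and NADPH, 10 genes, had a median of 0.25 and none past 2-fold. IDH1, which makes NADPH in the cytosol, went from 33.9 to 24.7 FPKM (−0.44). The 14 compared genes of other elongation and desaturation enzymes had a median of 0.23 and none past 2-fold. Of these 11 were above 0 and 3 below, beside 6451 and 6069 of the 12520 compared genes. With the length and GC trend removed the median of this list was 0.14. In that list ELOVL1, which lengthens very long saturated chains, went from 25.2 to 39.4 FPKM (0.63), and MLXIPL, which encodes the glucose-responsive factor ChREBP, from 1.53 to 0.412 FPKM (−0.84).

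Acyl-CoA and glycerolipid synthesis, 15 genes, had a median of 0.03 and none past 2-fold. The acyl-CoA synthetases there parted, with ACSL3 going from 41.1 to 20.3 FPKM (−0.99) and ACSL1 from 0.960 to 2.81 FPKM (0.96). Fatty acid oxidation, 19 genes, had a median of 0.09, and 1 passed 2-fold, SLC25A20, the mitochondrial carnitine-acylcarnitine carrier, which went from 3.56 to 8.19 FPKM (1.01). Over the 8 lists the medians ran from −0.18 to 0.25, beside 0.85 and 0.83 in the mevalonate and sterol arms and 0.02 over all compared genes. Whether the lists differ from one another was not tested.

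**Figure D5:**
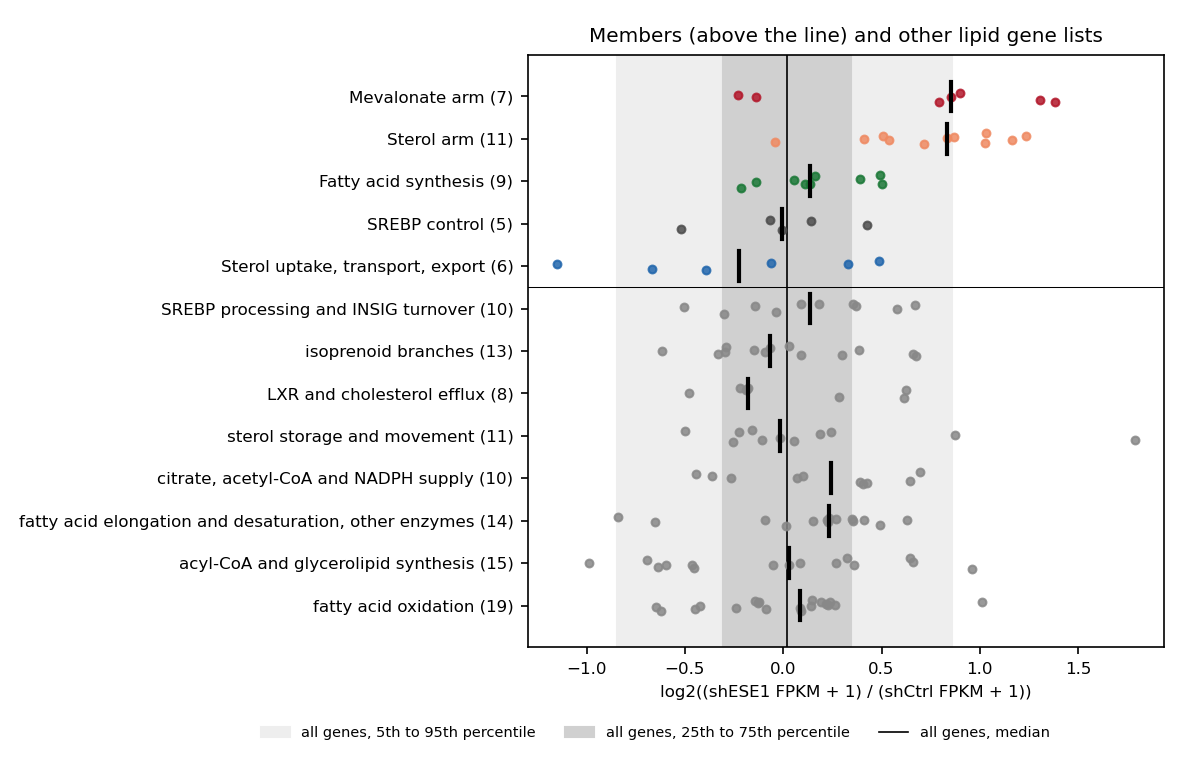
Log2 change with a pseudocount of 1 for each compared gene of the 5 member groups and the 8 other lipid lists, 1 point per gene, with the median of each as a short bar and the number of genes in brackets, over shaded bands for the percentiles of all 12520 compared genes. The median bars of the mevalonate and sterol arms are at 0.85 and 0.83 and those of the 8 other lists between −0.18 and 0.25, while the bands describe single genes and not medians of lists.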

How the data were processed

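RNA of 1 shCtrl and 1 shESE1 library of L3.6 cells was sequenced as strand-specific paired-end poly(A) libraries. The authors deposited FPKM per gene, in which genes without reads hold a small constant, set to 0 here. A deposited column of raw whole-number counts gives the reads of each gene. Per the submitters' processing notes, GRCh38 and mm10 were the builds, and the tools were StringTie, HISAT2 and fastp. What each tool did, its version, how counts were made and with which strand setting is not given in the sources used here. Positions refer to GRCh38.

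The members and lists were chosen with earlier results of these data known. Genes reaching 1 FPKM in either library were compared as log2((shESE1 FPKM + 1)/(shCtrl FPKM + 1)) and counted at 2-fold and 1.5-fold. Every member is named. Of each other list, every gene past 2-fold is named and otherwise 2 genes, those with the largest change upward and downward. Not every gene this rule names is reported here. No test was run with 1 library per condition. Intervals of the FPKM ratio were derived from 95% Clopper-Pearson limits on how a gene's counts divide between both libraries. Totals of 56853971 and 60786475 counts gave members 496 to 116963 counts in a library.

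Alternatives were pseudocounts of 0.1 and 5, TPM, median ratio and TMM scaling (own implementation), totals without mitochondrial genes, CPM, a filter of 5 FPKM or none, a 1.5-fold threshold, and genes sharing at least 20% of the 100-base words of GENCODE release 29 transcripts counted together. Removal of the length and GC trend over 20 bins each, and leaving out members with an overlapping gene of at least 10% of their counts, were chosen after seeing the data. Promoter sequence came from RefSeq. The calculation was tested on simulated data. Software was scipy 1.17.1, pandas 2.3.3, numpy 2.4.6 and matplotlib 3.10.9 under Python 3.11.15.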

Additional observations from a re-analysis of the deposited data

How the results depend on the processing

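Over 8 alternatives of pseudocount, scaling, value and trend, 27 of 38 members kept the sign of their log2 change, among them the 15 higher members of the mevalonate and sterol arms. Of the group medians, that of the fatty acid genes changed sign without mitochondrial genes in the totals, and that of the SREBP control genes did so as TPM, as CPM with and without TMM scaling (0.0193 without) and with overlapping members left out. With a pseudocount of 0.1, 3 genes of the other lists were at least 2-fold lower, beside 7.65% of all compared genes. With a pseudocount of 5, 0 members were lower and 3 higher, all 3 in cholesterol synthesis, beside 0.879% and 1.13% of all compared genes. The medians were then 0.53 (mevalonate), 0.72 (sterol), 0.63 (both arms) and 0.0876 (fatty acids), and 1 gene of the other lists was higher. As TPM, 12 members were higher, all 12 in cholesterol synthesis, and 1 gene of the other lists was lower and 4 higher. Of all compared genes, 3.99% were lower and 9.16% higher as TPM. The medians were 1.13 (mevalonate), 1.11 (sterol), 1.12 (both), 0.40 (fatty acids), 0.25 (SREBP control) and −0.00472 (uptake, transport and export). With median ratio scaling the medians were 0.0776 (fatty acids) and −0.0624 (SREBP control). There 1 gene of the other lists was lower and 1 higher, beside 3.52% and 2.64% of all compared genes. With TMM scaling they were 0.95 (mevalonate), 0.92 (sterol), 0.94 (both), 0.21 (fatty acids) and 0.0635 (SREBP control), with 1 lower. Without mitochondrial genes in the totals the medians were 0.72, 0.70, 0.71, −0.000795 and −0.14 in the same order and −0.34 for uptake, transport and export. There 1 gene of the other lists was lower and 1 higher, beside 4.47% and 2.34% of all compared genes. In CPM 1 gene of the other lists was lower, beside 5.64% of all. With a filter of 5 FPKM 0 members were lower, beside 3.40% of the 6764 genes it left, and the median of uptake, transport and export was −0.39. At 1.5-fold, 2 members were lower and 12 higher, all 12 in cholesterol synthesis, and the other lists held 9 lower and 14 higher. Of all compared genes, 11.5% were lower and 12.2% higher at 1.5-fold. With the length and GC trend removed, chosen after seeing the data, 0 members were lower and 1 gene of the other lists was higher. Of all compared genes, 3.51% were then lower and 2.32% higher. The medians were 0.58 (mevalonate), 0.67 (sterol) and 0.65 (both). With the 8 members overlapping another gene left out, also chosen after seeing the data, the medians were 0.0676 (SREBP control) and −0.36 (uptake, transport and export). The cause of these shifts was not tested. No paired analysis was possible because each condition had 1 library. Depth limits the members little, at 496 counts or more, but the spread between cultures was not measured.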
